A study of Mus musculus with 6 samples.

Results

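The regions described here are the places in the mouse genome where phosphorylated Smad2 (pSmad2) ChIP peaks were listed for embryonic stem (ES) cells kept in the receptor inhibitor SB-431542 (SB) or in its carrier DMSO. The 4759 listed SB peaks and the 7423 listed DMSO peaks were turned into intervals and merged where they overlapped, which gave 10188 regions, against 13017 when the Activin list was merged in as well. Of the 10188 regions, 5544 came from the DMSO list only, 3025 from the SB list only and 1619 from both. Their median width was 468 bp.

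The cells were E14 TG2A, an established mouse ES line. All cultures spent 6 h in 10 µM SB in serum replacement medium. They were then held for 18 h in 10 µM SB (low signaling), in DMSO diluted 1:5000 (endogenous signaling) or in 25 ng/ml Activin (high signaling), so that the DMSO cells too had seen the inhibitor. Chromatin was pulled down with an antibody to the phosphorylated carboxy terminus of Smad2 and sequenced beside an input library, with 1 ChIP and 1 input library per treatment. Without replicates, every test below compares the tags of 2 libraries and not the treatments, and every interval covers counting error only. Binding measures no RNA, so the identity of the cells could not be checked from their markers.

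Nodal and Activin signal through type I and type II receptor kinases, which phosphorylate Smad2 and Smad3. These join Smad4, enter the nucleus and act on DNA with partner factors such as the forkhead protein Foxh1. SB blocks the type I receptors Alk4, Alk5 and Alk7, which serve Nodal, Activin and TGFbeta, and leaves the BMP receptors largely untouched. In ES cells and in the early embryo the pathway switches on its own antagonists and feedback inhibitors, among them the Lefty genes and Smad7.

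The DNA under 5 sites is shown first, because these sites carry the contrast between lost, kept and raised binding. Each stretch is 125 bases of the + strand of mm9 (NCBIM37), centered on a CAGAC near the highest pileup. CAGAC, the core of the Smad-binding element, or its complement GTCTG is in capitals, and so is AATCCACA, a motif bound by Foxh1. The first 3 lie in peaks that were lower in SB, and Id2 in a peak that was higher. Zfp42 lies in its peak 14.5 kb from the start, which stayed within 2-fold. That Zfp42 peak was also called lower when scaled by the tags outside the regions, so it is not a clean case of kept binding. They are, in order, chr1:182819106-182819230, chr4:154564042-154564166, chr9:110850025-110850149, chr12:25783658-25783782 and chr8:44377773-44377897.
Lefty2: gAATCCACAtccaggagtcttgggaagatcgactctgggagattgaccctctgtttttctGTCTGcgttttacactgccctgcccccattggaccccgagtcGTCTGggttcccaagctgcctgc
Ski: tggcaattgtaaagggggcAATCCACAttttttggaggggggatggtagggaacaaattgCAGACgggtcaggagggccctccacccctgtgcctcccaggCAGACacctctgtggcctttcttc
Tdgf1: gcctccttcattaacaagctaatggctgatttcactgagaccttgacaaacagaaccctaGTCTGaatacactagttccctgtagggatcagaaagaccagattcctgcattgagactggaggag
Id2: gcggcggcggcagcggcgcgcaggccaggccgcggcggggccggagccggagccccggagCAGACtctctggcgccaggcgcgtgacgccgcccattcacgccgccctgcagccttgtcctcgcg
Zfp42: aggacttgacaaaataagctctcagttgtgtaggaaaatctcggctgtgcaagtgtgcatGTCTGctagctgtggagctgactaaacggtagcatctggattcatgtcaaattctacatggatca
The Lefty2 and Ski stretches held both motifs. The Tdgf1, Id2 and Zfp42 stretches held CAGAC alone. A match is a description of letters and not evidence of a bound factor.

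The 4 libraries compared held between 9757735 and 12879960 tags of 35 bases. Tags that shared a position and strand were counted once, since 20.0% of the SB ChIP tags and 24.6% of the DMSO ChIP tags repeated an earlier one, against 6.94% and 6.25% in the inputs. The regions took 2.27% of the unique SB ChIP tags and 2.17% of the unique DMSO ChIP tags. The median region held 13 unique tags in SB and 16 in DMSO, so a region of median depth could only show a large difference. A ratio below is the SB over the DMSO count divided by 0.803, the ratio of unique tags outside the regions.

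The SB ChIP library was richer in GC than the DMSO ChIP library. Outside the regions, the scaled SB over DMSO ratio of windows rose from 0.788 at 25 to 27.5% GC to 2.32 at 75 to 77.5% GC. The input libraries moved the same way over a smaller range, from 0.870 in the poorest windows to 1.42 at 72.5 to 75% GC. Each region was therefore scaled a second way, by the ratio that windows of its own GC content showed. A region was called lower or higher when the exact 2-sided binomial test gave an adjusted p under 0.05 over all 10188 regions. Where the call depends on the scaling, both are given.

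**Figure D1:**
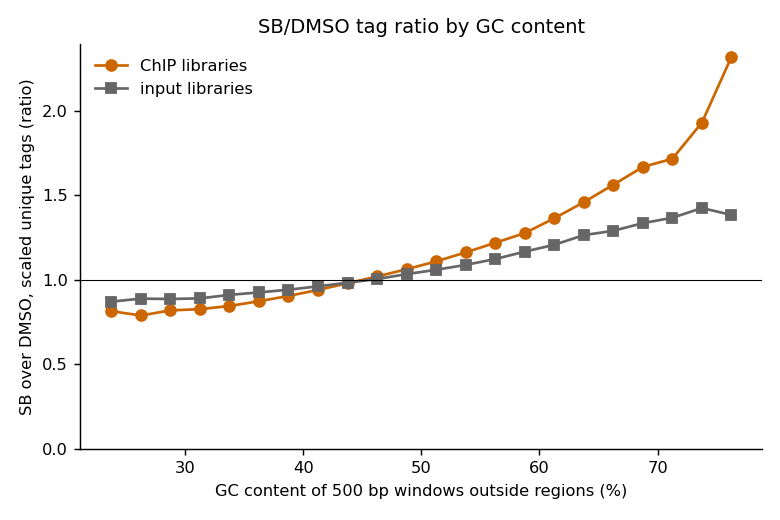
SB over DMSO ratio of unique tags in 500 bp windows outside the regions, scaled to the ratio of all tags outside, against the GC content of the window in percent (orange circles: ChIP libraries, gray squares: input libraries, 1 library each). Both lines climb with GC content, and the ChIP line reaches 2.32 in the richest windows.

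Scaled by the tags outside, 322 regions (3.16%) were lower in SB and 363 (3.56%) were higher. Scaled by GC content, 212 (2.08%) were lower and 127 (1.25%) were higher, so the balance tipped from higher to lower calls. Both scalings called 191 regions lower (1.87%) and 115 higher (1.13%). A region counted as kept when the 95% interval of its ratio lay within 0.5 and 2 and the SB ChIP library exceeded the SB input. That held for 895 regions (8.78%), and for 709 (6.96%) under both scalings. The other 9173 regions met none of these under both scalings and held medians of 11 SB and 15 DMSO tags. The same test on the input libraries called 1 region higher and 0 lower. The SB and DMSO inputs held 86511 and 100305 unique tags in the regions, against 177442 and 211098 in the ChIP libraries. The input test thus had less power, and its counts are not an error rate for the ChIP calls.

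**Figure D2:**
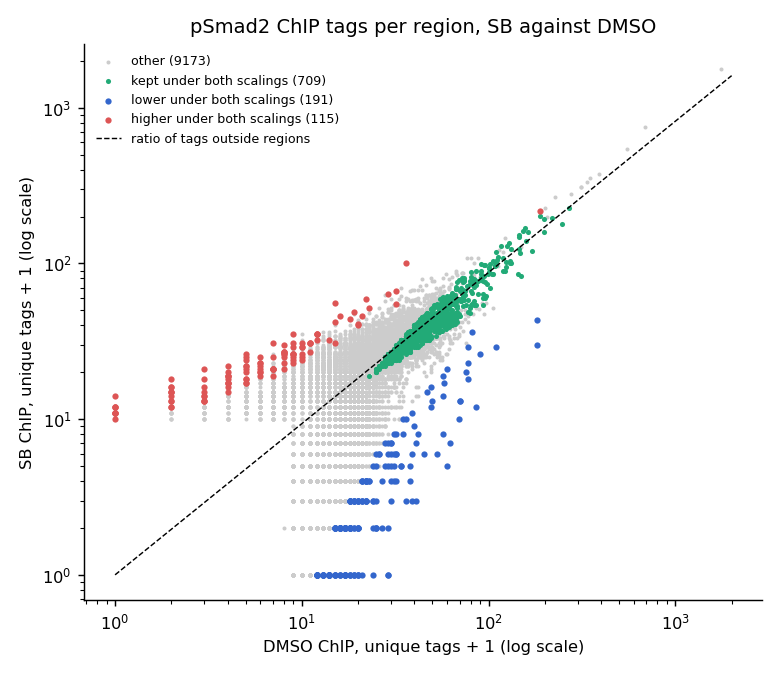
Unique tags plus 1 in the DMSO ChIP library (x, log scale) and in the SB ChIP library (y, log scale) for each of the 10188 regions, with the dashed line at the ratio of the tags outside regions. The 191 regions lower under both scalings (blue) lie below the line and the 115 higher ones (red) above it, while the 709 kept regions (green) follow it up to about 200 tags.

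The listed position is the end of a peak and the rule reaches back a fixed length, so tall and wide peaks were held only in part. The fixed interval held less than 50% of the listed tags in 1090 of 7423 DMSO peaks (14.7%), and in 224 of the 251 DMSO peaks with at least 100 listed tags. At the named genes the values below are therefore those of whole peaks. These were counted back from the listed end until the listed number of unique tags was reached, over at most 10 kb. The use of whole peaks was chosen after the data had been seen. Over whole peaks, 521 of 9415 regions (5.53%) were lower in SB under both scalings, 357 (3.79%) were higher and 1044 (11.1%) were kept. A whole peak begins at a tag of the library that listed it, so small peaks lean to that library. Peaks from the DMSO list were selected by tags of the same library that enters the ratio, and the Activin tags given beside them come from a library that did not select them.

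Within the pathway itself, sites of the secreted antagonists Lefty1 and Lefty2 had the lowest ratios among the tall peaks. The peak 4.2 kb upstream of Lefty2, which encodes an inhibitor of Nodal, held 19 unique tags in SB and 313 in DMSO (chr1:182818161-182819789). SB was 0.0757 of DMSO there, with a 95% interval of 0.045 to 0.12 and an exact adjusted p of 3.99e-53. The SB ChIP tags at this site stood at 1.35 times the SB input, with an interval of 0.672 to 2.73 that includes 1, whereas the DMSO ChIP tags stood at 15.7 times their input. Lefty2 binding in SB could thus not be told from the input at this depth.

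Lefty1, the neighboring gene with the same role, had a pair of tall peaks. The one 10.1 kb upstream held 29 tags in SB, 279 in DMSO and 391 in Activin, a ratio of 0.13 (0.0853 to 0.19). The one 1.1 kb upstream held 59, 399 and 782, a ratio of 0.185 (0.138 to 0.243). Both ratios had exact adjusted p under the threshold, at 3.51e-38 and 1.22e-44. The distal peak still stood at 2.32 times the SB input (1.22 to 4.58). At the proximal whole peak, 5098 bp wide, the interval included 1 (0.865 to 1.84) and overlapped that of the distal peak. The fixed-length region inside the proximal peak, 1258 bp wide, stood at 2.63 times the SB input (1.35 to 5.39). A site 16.7 kb downstream of the Lefty2 start did not share the loss, with 25 tags in SB and 33 in DMSO and a ratio of 0.945 (0.539 to 1.64).

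Over whole peaks, the tallest peaks of the coreceptor and the ligand of the pathway fell less than those of the Lefty genes. At Tdgf1, which encodes the Nodal coreceptor Cripto, the peak 1.4 kb upstream of the start held 94 tags in SB, 210 in DMSO and 248 in Activin. Its ratio was 0.559 (0.433 to 0.716, exact adjusted p = 0.000239). At Nodal itself the intronic peak 1.3 kb past the start held 77, 147 and 215 tags, a ratio of 0.654 (0.49 to 0.867, exact adjusted p = 0.0268). The Nodal call rests on the interval: the fixed-length region inside this peak held 28 and 30 tags and was not called (1.16, interval 0.669 to 2.01), while the Activin-list interval there held 31 and 81 and was lower (0.476, interval 0.304 to 0.729). Both tall peaks stayed over their SB input, at 3.01 and 3.52 times. Over whole peaks, the upper ends of the intervals of the 3 tall Lefty peaks lie under the lower ends of these Tdgf1 and Nodal intervals. A smaller Tdgf1 peak in an intron 3.3 kb from the start fell further, with 6 tags in SB and 25 in DMSO, at 0.299 (0.1 to 0.748), and its interval overlaps those of Lefty1. The whole peaks differ in width, at 4899 bp for the tall Tdgf1 peak and 1052 bp for the distal Lefty1 peak. In the Activin-list interval, Tdgf1 held 22 and 69 tags (0.397, interval 0.234 to 0.649). There the Tdgf1 and Nodal intervals of the ratio overlap that of the proximal Lefty1 site (0.202, interval 0.113 to 0.338). They do not overlap those of Lefty2 and the distal Lefty1 site.

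Gdf3 and Dand5 were not called lower. The peak in Gdf3, a ligand of the same receptors, held 27 tags in SB and 34 in DMSO and was kept under both scalings, at 0.991 (0.575 to 1.69). The peaks near Dand5, a secreted Nodal antagonist, were kept as well at 2.1 and 8.4 kb upstream, with ratios of 0.948 and 1.17. Over the 13 ligands, antagonists and coreceptors, 7 had a region within 10 kb. Of their 27 fixed-length regions, 5 were lower, beside 3.16% of all regions, and 0 were higher. The 5 lay at Lefty1 (3), Lefty2 and Tdgf1, and the median ratio was 0.724, against 0.890 over all regions. Over whole peaks 7 of 20 were lower and 1 higher, beside 974 and 1031 of all 9415. The higher one lay in Gdf1, with 261 tags in SB and 222 in DMSO. Its ratio was 1.47 (1.22 to 1.76), and it was not called under GC-matched scaling (1.14).

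**Figure D3:**
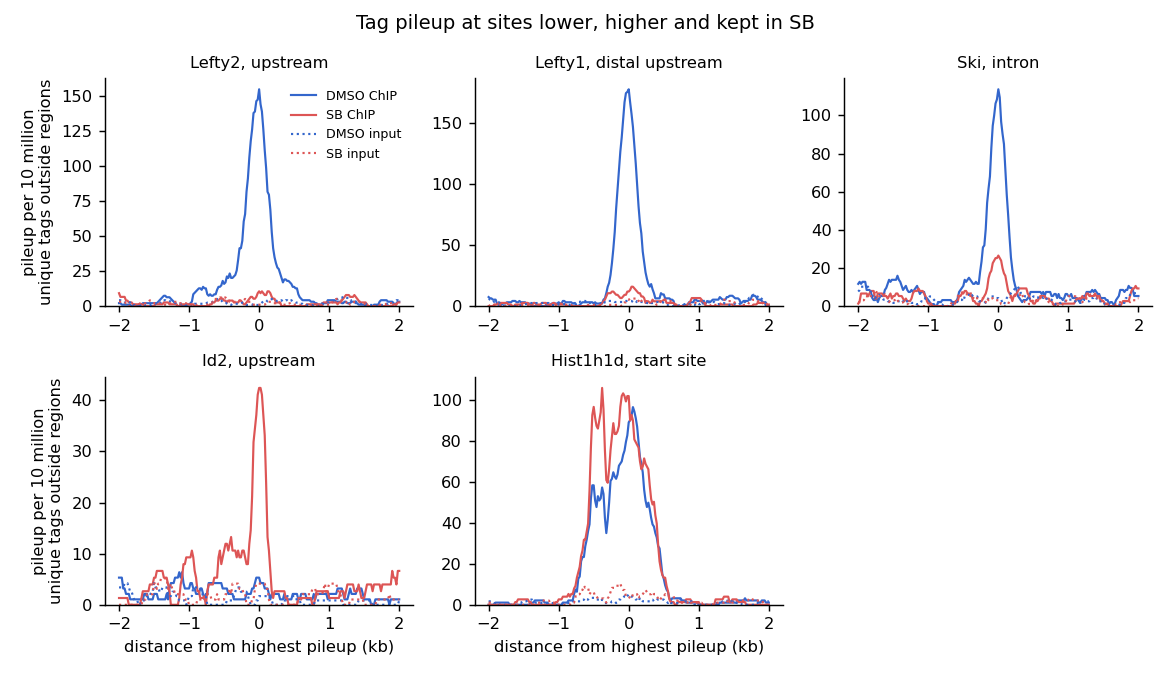
Pileup of 200 bp extended tags per 10000000 unique tags outside the regions, against the distance in kb from the highest pileup, for the DMSO (blue) and SB (red) ChIP libraries (solid) and inputs (dotted) at 5 sites. The SB pileup reaches 10.6 against 155 in DMSO at Lefty2, 26.5 against 114 in the Ski intron, 42.4 against 6.38 at Id2 and 106 against 96.7 at Hist1h1d.

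The receptors and Smads themselves gave little to compare. Within 10 kb, 3 of 10 genes in this list had a region, and none of the 5 fixed-length regions was called lower or higher. The median ratio over the 5 was 1.08. Over whole peaks 1 of 4 was lower under both scalings, a small one in an intron of Smad3 with 0 tags in SB and 9 in DMSO (exact adjusted p = 0.0394). The other Smad3 peak, past the end of the gene, held 34 tags in SB and 49 in DMSO and was not called, at 0.866 (0.542 to 1.37).

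Feedback inhibitors and corepressors lost binding at particular sites, and Smad7 kept it at another. At Smad7, the inhibitory Smad, the peak 6.5 kb upstream held 10 tags in SB, 65 in DMSO and 89 in Activin. Its ratio was 0.192 (0.0879 to 0.376, exact adjusted p = 6.43e-06). The peak at the Smad7 start site, in contrast, held 63 tags in SB, 74 in DMSO and 62 in Activin and was kept, at 1.06 (0.747 to 1.51). The 2 intervals of the ratio do not overlap, although the fixed-length piece of the start site peak, with 25 and 53 tags, was called lower by GC-matched scaling alone.

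The corepressor genes Ski and Skil were lower at intronic peaks. In an intron of Ski, 32.6 kb from the start (chr4:154563518-154564764), SB held 42 tags, DMSO 180 and Activin 270. The ratio was 0.291 (0.203 to 0.409, exact adjusted p = 2.71e-12). At 3.2 kb from the same start SB held 49 tags and DMSO 34, a ratio of 1.8 (1.14 to 2.87) that was called higher, but not by GC-matched scaling. The Skil peak 0.7 kb into the gene held 10 tags in SB and 36 in DMSO, at 0.347 (0.153 to 0.713). Pmepa1, a membrane protein that holds receptor-regulated Smads away from the receptor, fell in an intron 37.8 kb from its start. SB held 18 tags there and DMSO 59, a ratio of 0.381 (0.211 to 0.655), with DMSO at only 1.89 times its input. The Pmepa1 peak 1 kb from the start stood at 8.76 times the DMSO input and held 19 and 42 tags. Its ratio was 0.564 (0.31 to 0.992), called lower by GC-matched scaling alone (0.447). Spsb1, which limits TGFbeta receptor levels, fell 17.9 kb from its start, with 17 and 61 tags and a ratio of 0.348 (0.19 to 0.603).

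In all, 5 of the 27 fixed-length regions of this list were lower, beside 3.16% of all regions, and 0 higher, beside 3.56%. The 5 lay 1 each at Smad7, Pmepa1, Ski, Skil and Spsb1. GC-matched scaling called 7. No region of the ubiquitin ligases Smurf1 and Smurf2 or of the corepressor Tgif1 was called. At Tgif1, the whole peak 2.9 kb from the start held 68 tags in SB and 95 in DMSO and was kept, at 0.893 (0.644 to 1.23). The median ratio of the list was 0.545.

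Among regulators of mesendoderm, Fgf8, Lhx1 and Foxa2 are described. The whole peak 6.3 kb upstream of Fgf8, a growth factor of the primitive streak, held 37 tags in SB, 23 in DMSO and 13 in Activin. Its ratio of 2.01 (1.16 to 3.54) was called higher, but not under GC-matched scaling (1.36). The peaks near the transcription factor genes Lhx1 and Foxa2 held 9 to 11 tags in the SB and in the DMSO library and were not called.

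**Figure D4:**
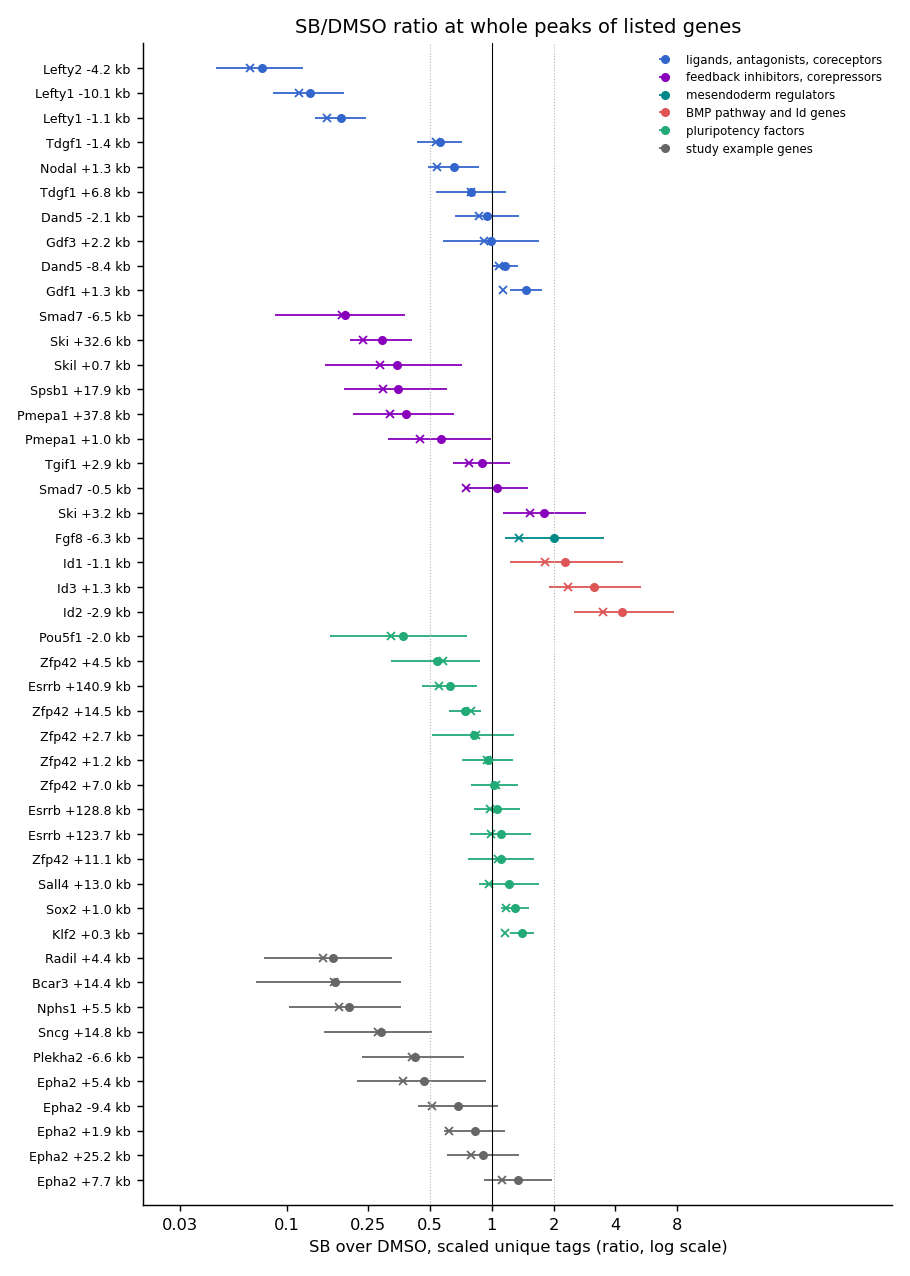
SB over DMSO ratio (log scale) at whole peaks of listed genes that were called or kept and held at least 40 tags in both libraries together, with the distance of the peak from the gene start in kb. Dots and bars give the ratio scaled by tags outside regions and its 95% counting interval, crosses the GC-matched ratio, and dotted lines 0.5 and 2. The Lefty2 site and the distal Lefty1 site lie farthest to the left and sites of Id2 and Id3 farthest to the right.

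Genes that the study had used as examples of binding also lost it at some sites. Of 15 genes, 13 had a region, and 9 of their 31 fixed-length regions were lower, beside 3.16% of all regions, and 0 higher, beside 3.56%. This list was chosen by the study on these libraries and is no independent evidence of direction, and 3 of the 9 are the Lefty1 regions, which also lie near Tmem63a. Radil, an effector of the small GTPase Rap, held 10 tags in SB, 74 in DMSO and 167 in Activin in an intron, a ratio of 0.169 (0.0777 to 0.328). Nphs1, which encodes the podocyte protein nephrin, held 13, 81 and 123 tags in an exon, a ratio of 0.2 (0.102 to 0.362). In Bcar3, an adaptor protein gene, SB held 8 tags and DMSO 58 (0.172, interval 0.071 to 0.362). The ephrin receptor gene Epha2 was mixed, with 1 of its 12 fixed-length regions lower and 3 kept. A tall peak farther upstream (chr4:140837398-140840901) held 78 tags in SB, 241 in DMSO and 278 in Activin, a ratio of 0.404 (0.309 to 0.523).

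Beyond the listed genes, the 15 fixed-length regions of smallest p among those lower under both scalings were taken in order. They had ratios of at most 0.320, and 11 of them could not be told from the SB input. None lay within 1 kb of a start site, beside 20.4% of all regions, and 8 lay more than 10 kb from one, beside 44.6%. All 15 fell in intervals of the Activin list as well, beside 20.9% of all regions. Besides Lefty1, Lefty2, Ski, Smad7, Radil and Nphs1 they included, named by the nearest start, Cd83, Pkdcc, Ephx3, Hoxb3, Large, Lrrn3, Hes1 and Crisp4.

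Several of these sites lay far from the gene that names them. The region 90.8 kb from Hes1, a transcriptional repressor downstream of Notch, held 2 tags in SB, 38 in DMSO and 47 in Activin, a ratio of 0.0656 (0.00766 to 0.254). The region 48.5 kb upstream of Pkdcc, a secreted kinase of limb and lung development, held 6, 61 and 105 tags, a ratio of 0.123 (0.0433 to 0.282). The region 233.7 kb from Cd83, a surface glycoprotein of antigen-presenting cells, held 11, 85 and 101 tags, a ratio of 0.161 (0.0776 to 0.303). Closer to its gene, the Hoxb3 region lay in an intron of that homeobox gene, 1.6 kb from the nearest start, with 5 tags in SB, 52 in DMSO and 63 in Activin (0.12, interval 0.0373 to 0.298). The Crisp4 region and the piece of the Lefty2 peak inside the fixed interval held 0 tags in SB and 28 in DMSO, so SB was at least 7.49-fold lower against a floor of 3 tags.

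Sites that were higher in SB were led, in order of p, by regions near Id4 and Id2. The Id genes encode dominant negative helix-loop-helix proteins and are textbook targets of BMP signaling. The region 33.5 kb upstream of Id4 (chr13:48322471-48323580) held 100 tags in SB, 35 in DMSO and 24 in Activin. Its ratio was 3.56 (2.4 to 5.39, exact adjusted p = 9.77e-09), and 2.82 under GC-matched scaling. The peak 2.9 kb upstream of Id2 held 62, 18 and 26 tags, a ratio of 4.3 (2.51 to 7.72) or 3.49 when GC-matched. The peak 1.3 kb into Id3 held 58, 23 and 22 tags, a ratio of 3.15 (1.91 to 5.35) or 2.35 when GC-matched. Id1 went the same way 1.1 kb upstream, with 31 tags in SB against 17 in DMSO and 17 in Activin (2.28, interval 1.22 to 4.38), but GC-matched scaling gave 1.82 and no call. The Id2 and Id3 sites stood at 7.22 and 2.56 times the SB input. A small peak 8.8 kb upstream of Id3 went the other way, with 2 tags in SB and 12 in DMSO. Its ratio was 0.208 (0.0226 to 0.934), and it was not called under either scaling.

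At the other BMP genes no fixed-length region was called, on small counts. Of the 13 BMP pathway and Id genes, 7 had a region, and 2 of the 11 fixed-length regions were higher, beside 3.56% of all regions, those at Id2 and Id3. None was lower. The regions of Smad6, an inhibitory Smad of the BMP branch, were not called, and the peak at its start held 35 tags in SB and 41 in DMSO (1.07, interval 0.659 to 1.71). The whole peak 0.2 kb from the Bmpr1a start held 18 and 9 tags (2.5, interval 1.06 to 6.31) and was not called. The whole peak 0.3 kb upstream of Bambi held 5 and 16 tags and was lower by GC-matched scaling alone (0.241). The median ratio of the list was 1.11.

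Of the 15 leading higher regions, 6 lay at start sites and 3 in intervals of the Activin list, beside 20.4% and 20.9% of all regions. AATCCACA was in none of them, but only 1.41% of all regions held it, so its absence from 15 says little. The region at the start of E2f3, a cell cycle transcription factor, held 58 tags in SB and 21 in DMSO, a ratio of 3.44 (2.06 to 5.97) that fell to 2.39 when GC-matched. At the start of Slc7a5, an amino acid transporter, the counts were 34 and 8, and the ratio went from 5.29 (2.41 to 13.2) to 3.43. Smaller counts gave wide intervals: Abcb4 held 20 and 2 tags (3.03 to 110) and the Klf12 intron 17 and 1 (3.32 to 885). Over the 115 regions higher under both scalings, the median DMSO ChIP count was 5 tags, at 0.622 times the DMSO input, and 111 of them were in the SB list only, so the SB tags that listed them also set their direction.

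The kept regions with most tags depended on how peaks were cut. Of fixed length, the 10 kept regions with most tags held 119 to 200 unique tags in SB and 121 to 218 in DMSO, with ratios of 0.877 to 1.48 and SB ChIP at 7.96 to 17.7 times its input. They were named for Hist1h1d, Hist1h1b, Hist2h2bb, Hist4h4, Hist1h4d, Hist2h4, Hist1h2bk, Hist1h1e, Hspa8 and Rpl3, so that 8 of 10 were replication-dependent histone genes. At Hist1h1d, a linker histone gene, SB held 196 tags, DMSO 218 and Activin 180, a ratio of 1.12 (0.919 to 1.36). At Hist1h1e the counts were 144, 121 and 90, and the ratio of 1.48 (1.16 to 1.9) was also called higher, though not under GC-matched scaling (1.16). Hspa8, a constitutive chaperone, held 151, 144 and 122 tags, at 1.31 (1.03 to 1.65).

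Over whole peaks the 10 kept regions with most tags were wide merged ones, and none was named for a histone gene. Named by the nearest start, they included Gramd2, Enc1, Nlrp12, Slc2a3, Eef1a1 and Eif4a2. Gramd2 led with 1219 tags in SB, 1426 in DMSO and 1208 in Activin over 24898 bp, a ratio of 1.07 (0.987 to 1.15). The region named for Nlrp12 was narrower, at 6388 bp, and held 701, 871 and 748 tags, a ratio of 1.00 (0.908 to 1.11) with SB ChIP at 14.7 times its input. The translation factor genes Eef1a1 and Eif4a2 had ratios of 1.1 (0.974 to 1.24) and 0.965 (0.854 to 1.09).

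Of 61 regions at 67 histone genes, a list added after these values were seen, 0 were lower and 2 higher by the tags outside. The shares over all regions were 3.16% and 3.56%. Under both scalings 40 were kept, beside 6.96% of all regions. A kept call needs many tags, and the histone regions held medians of 65 SB and 77 DMSO tags, against 13 and 16 over all regions. The kept shares are thus not of like depth. The lowest ratio among the histone regions was 0.519 and the highest 2.34. The 293 regions at 80 ribosomal protein genes gave 0 lower and 7 higher by the tags outside, beside 3.16% and 3.56% of all regions. Under both scalings 77 of them were kept, beside 6.96% of all regions, with medians of 26 SB and 26 DMSO tags. The SB ChIP tags at the histone regions had a median of 8.17 times the SB input and the DMSO ChIP tags 9.12 times theirs.

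At pluripotency factor genes, 1 of 45 fixed-length regions was lower and 1 higher, near the shares over all regions (3.16% and 3.56%). They lay at 10 of 16 genes, 13 were kept, beside 8.78% of all regions, and the median ratio was 0.949. The whole peak spanning Sox2 held 325 tags in SB, 312 in DMSO and 296 in Activin, and that at Klf2 432, 384 and 287. Both were called higher, at 1.3 (1.11 to 1.52) and 1.4 (1.22 to 1.61), and neither under GC-matched scaling (1.17 and 1.16). The intronic Zfp42 peak 7.0 kb from the start was kept, with 108 and 131 tags (1.03, interval 0.79 to 1.34), and the widest one at 14.5 kb, with 192 and 323 tags, met the kept rule at 0.742 (0.617 to 0.89) while also called lower by the tags outside.

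Whole peaks lower under both scalings lay at Pou5f1, Esrrb and Nanog. Upstream of Pou5f1, which encodes Oct4, the peak 2.0 kb from the start held 10 tags in SB, 34 in DMSO and 43 in Activin. Its ratio was 0.367 (0.162 to 0.76, exact adjusted p = 0.0333), and the fixed-length region, with 9 and 32 tags, passed under GC-matched scaling only. The peak at the Pou5f1 start itself held 38, 52 and 54 tags, at 0.912 (0.584 to 1.41). In Esrrb, an orphan nuclear receptor gene, the intronic peak at 140.9 kb held 65 and 130 tags (0.624, interval 0.456 to 0.847), whereas that at 128.8 kb held 116 and 136 and was kept (1.06, interval 0.824 to 1.37). The main Nanog peak, 0.9 kb into the gene, was not called, at 38 and 64 tags (0.741, interval 0.482 to 1.12). A small peak 4.8 kb upstream, with 1 SB and 12 DMSO tags (0.104, interval 0.00243 to 0.703), was called. Of 13 trophectoderm genes only Tcfap2c, a transcription factor gene, had a region within 10 kb. Its whole peak held 19 tags in SB and 8 in DMSO and was called higher, at 2.96 (1.24 to 7.83, exact adjusted p = 0.0496), but neither under GC-matched scaling nor at the fixed length, with 19 and 10 tags.

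The Activin list gives a set of sites that neither the SB nor the DMSO tags selected. Over its 5026 merged intervals, 103 (2.05%) were lower in SB than in DMSO and 46 (0.915%) higher. GC-matched scaling called 108 (2.15%) lower and only 4 (0.0796%) higher. The calls rose with the strength of binding under Activin. With high-copy intervals left out, 15 of 3108 intervals with under 25 Activin tags were lower, then 40 of 1554 with 25 to 49, 19 of 204 with 50 to 74 (9.31%), 10 of 58 with 75 to 99 (17.2%) and 19 of 54 with 100 or more (35.2%). The share of kept intervals rose over the same steps, from 1.51% to 61.1%. Power rises with tags too, so the steps do not give the share of weak sites that changed.

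**Figure D5:**
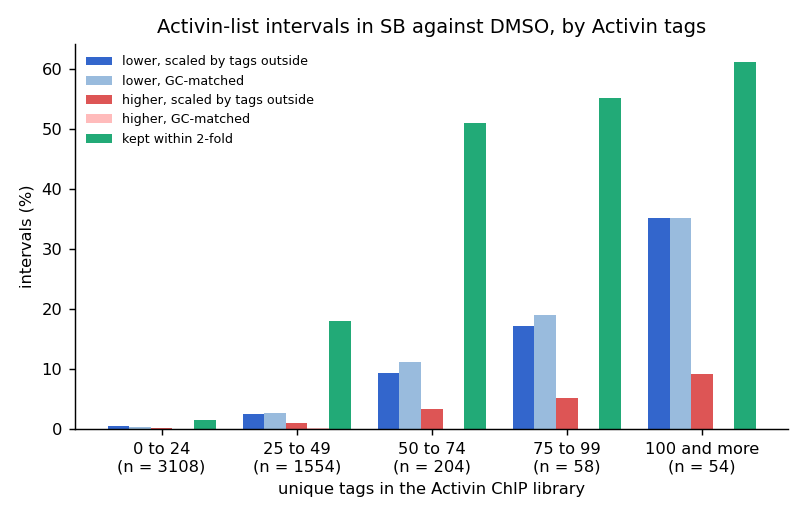
Percent of Activin-list intervals called lower, higher or kept in SB against DMSO (bars, starting at 0), by unique tags in the Activin ChIP library, with the number of intervals under each step. In the step of 100 or more tags 35.2% were lower under either scaling, 61.1% were kept, and 9.26% were higher by tags outside but 0 under GC-matched scaling.

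Of the 54 strongest Activin sites, 19 were lower and 33 kept. The other two, at Sox2 and Trim41, were called higher by the tags outside (1.84 and 1.59) but not under GC-matched scaling, as were 3 of the kept ones. Of the 19 lower ones, 1 lay at a start site and 9 lay more than 10 kb from one. Of the 33 kept ones, 13 lay at a start site and 4 beyond 10 kb. Lower sites with high Activin tags included Lefty2 with 15 tags in SB, 268 in DMSO and 426 in Activin, Lefty1 with 25, 270 and 385, and Ski with 35, 162 and 245. In the 11 histone intervals among the 54, 0 were lower, Hist1h1b for example holding 239, 206 and 209 tags. The median GC content of the lower intervals was 51.1% and that of the kept ones 52.6%.

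The location and sequence of the classes of region are given as shares with no test. Of the 191 regions lower under both scalings, 6.81% lay at a start site, 44.5% in introns and 42.9% between genes. Of the 709 kept regions 26.7% lay at a start site, as did 20.4% of all regions. Of the lower ones, 176 could not be told from the SB input. As many as 180 of the 191 were in the DMSO list only, so the DMSO tags that listed them also set their direction. Start sites had the highest share of higher calls, at 153 of 2078, but GC-matched scaling left 16 of them. Regions called higher by the tags outside had a median GC content of 55.6%, and those called lower 45.2%, against 46.4% and 47.9% for regions that passed under both scalings.

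The 2 motifs shown in the sequences were counted on both strands in 200 bp around the highest pileup of each region. AATCCACA occurred in 144 of the 10188 regions (1.41%) and CAGAC in 43.8%. In the 191 lower regions the shares were 14.7% and 54.5%. In the 709 kept regions they were 0.987% and 43.6%, and in the 115 higher ones 0 regions held AATCCACA and 45.2% held CAGAC. The lower regions divided by whether the Activin library had listed them too. The 98 in the Activin list held AATCCACA in 26.5% and CAGAC in 68.4%, with a median of 38 Activin tags. The 93 outside it held them in 2.15% and 39.8%, with a median of 7 Activin tags. Over whole peaks the share with AATCCACA was 25.1% in the 175 lower regions of the Activin list and 0.670% in the 1044 kept ones.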

How the data were processed

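The deposited files of aligned tags (35 bases, Genome Analyzer II) and the deposited peak lists were used. Per the labels the tags were on mm9. The authors called peaks per treatment with MACS (p cutoff 1e-05, input as control). No aligner was named in the sources used here. The peak lists hold the chromosome, the position and the count of tags that the authors deposited for each peak. Each tag was counted at its 5′ end moved 100 bp inward. A listed position was extended back by 1109 bp (SB) or 467 bp (DMSO). For the Activin list, intervals of 833 bp were centered on the listed position. GC content was taken in 500 bp windows in steps of 2.5 points. Tests were exact 2-sided binomial tests with Benjamini-Hochberg adjustment over all regions, and ratios have Clopper-Pearson 95% intervals (Python 3.11.15, scipy 1.17.1). The script was tested on simulated data. Regions within 10 kb of a listed gene were looked up, and the 15 lower, 15 higher and 10 kept regions that led were named by the nearest coding start, leaving out 122 regions with over 10 times the mean input. The members and lists were chosen with earlier results of these data known. Depth was 9757735 (SB ChIP), 12879960 (DMSO ChIP), 10516699 (SB input) and 12708225 (DMSO input) tags. Alternatives tried were all tags, total-tag and GC-matched scaling, other intervals, shift, tag minimum and threshold. Results at some listed genes are not reported here.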

Additional observations from a re-analysis of the deposited data

How the results depend on the processing

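Counts of calls moved with the processing, and the cause was not tested. Against 322 lower, 363 higher, 895 kept and 305 lower regions not above the SB input, and 110 lower and 46 higher regions of the Activin list, counting all tags gave 1185 lower, 1118 higher, 1133 not above input, and 246 and 192 in the Activin list. GC-matched scaling gave 212, 127, 196 not above input and 6 higher in the Activin list, and with all tags 1202, 623, 1490 kept, 1139, 260 and 86. The shorter (DMSO) interval length for both lists gave 149 higher, 253 kept and 18 higher in the Activin list, and the longer (SB) one 1468 kept. A minimum of 20 tags gave 123 lower and 106 not above input, which leaves out small peaks by construction. A threshold of 0.01 gave 68, 81, 58, 53 and 16. Whole peaks, added after seeing the data, gave 974, 1031, 937, 209 and 171. The median log2 ratio over regions, -0.16, went to -0.29 (GC-matched), -0.30 (GC-matched, all tags), -0.20 (shorter interval), -0.054 (longer interval), 0.18 (at least 20 tags, a change of sign) and -0.20 (whole peaks). Among 75 followed sites, which were called or kept at fixed length, the direction turned with a call by the tags outside at 2. In whole peaks these 2 were merged into wider ones: Sox2 (1.3) and Esrrb (0.624). Outside that count, the Nodal intron site stood above DMSO at fixed length without a call and was lower as a whole peak (0.654). The Smad7 start site, lower at fixed length by GC-matched scaling alone, was kept as a whole peak (1.06). No paired analysis was possible because each treatment has 1 ChIP library. A region of median depth, with 13 SB and 16 DMSO tags, can show only large differences.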
